A study of Homo sapiens with 12 samples.

Results

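Lycorine in imatinib-sensitive K562 cells was examined at the level of messenger RNA. The comparison set 3 libraries of K562 cells with lycorine (K562+L) against 3 libraries of control K562 cells, 6 of the 12 samples in the series, over every gene that passed a filter on low counts. This left 12927 of the 19447 gene symbols in the table. K562 is an established human chronic myeloid leukemia (CML) line that carries the BCR-ABL fusion kinase, and these cells had not been made resistant to imatinib. The study's text gives the lycorine concentration of the sequenced group as 6 µM, does not give the exposure before sequencing, and does not say what the control cells received in its place. Poly(A)-selected RNA was sequenced. The replicates are 3 libraries of 1 line in each group, and since neither the labels nor the methods say whether they came from separate cultures, p-values measure the spread between these libraries, which may be technical.

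Lycorine is an isoquinoline alkaloid of Amaryllidaceae plants. It is known to bind the large subunit of the eukaryotic ribosome and to block peptide bond formation. Cells read stalled ribosomes and missing amino acids through several kinase cascades. Among them, stress-activated MAP kinases induce JUN and the phosphatases that switch the kinases off again, and GCN2 acts through ATF4 on amino acid synthesis and transport. The endoplasmic reticulum and sterol pathways have transcription programs of their own, run by ATF6, XBP1 and the SREBP factors. The gene groups below follow these pathways and then the erythroid, cell cycle, death and autophagy genes for which K562 cells are used as a model.

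Total counts ran from 82779101 to 107344598 in the 6 libraries, and the 10 most abundant genes took 4.22% to 5.24% of them. Spearman correlations of log2 CPM, the counts scaled to a common TMM-normalized library size, were 0.985 to 0.993 among K562 libraries, 0.993 to 0.994 among K562+L libraries and 0.961 to 0.982 between groups. The erythroid and leukemic markers HBG1, HBG2, HBZ, GATA1, TAL1 and LMO2 were present in every library, with KIT low at 1.43 to 2.91 CPM. Their 11-gene list summed to 6186 to 8541 CPM in K562 and to 4101 to 4687 CPM in K562+L. CD8A, MS4A1 and ELANE, which define T cells, B cells and granulocytes, were at 0 in all 6 libraries, whereas LYZ stood at 104 to 122 CPM. In bulk RNA, fewer cells of a type and less RNA per cell cannot be told apart.

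Libraries also differed along transcript length. K562 replicate 1 lay towards long transcripts and K562 replicate 3 towards short ones. Over the sixth of the tested genes with the longest transcripts, 5701 bases or more, the median deviation from the group mean was 0.19 (log2) in K562 replicate 1 and -0.17 in K562 replicate 3. The contrast of the groups ran along the same direction, with a median log2 fold change of -0.32 in the sixth with the shortest transcripts, 177 to 1565 bases, and 0.27 in the sixth with the longest. It also ran along GC content, with a median of 0.15 in the sixth of lowest GC and -0.20 in the sixth of highest. In the latter, K562 replicate 1 deviated by -0.19 and K562 replicate 3 by 0.13. Medians of length classes given below leave GC content out. The part of these trends in each result was not tested. Values with offsets that take out each library's trend with length and GC content are given where they end a call or move a value or count by over 1.5 times. Counts of 3 or fewer members of a list in a direction moved by up to 4 with 1 library left out.

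**Figure D1:**
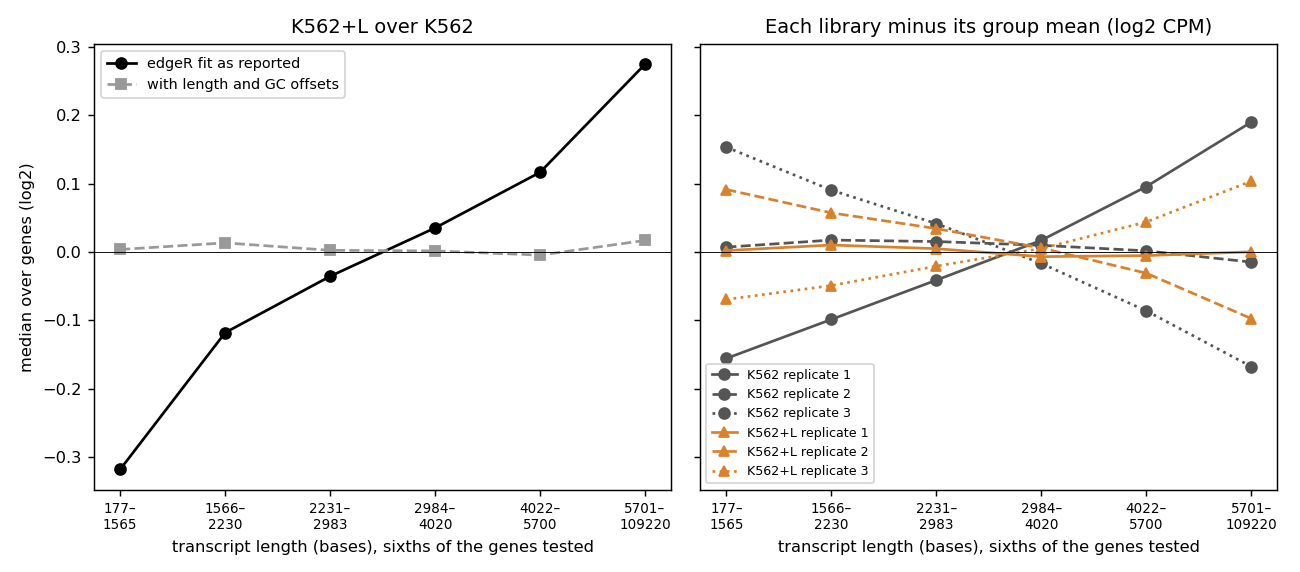
Left, the median log2 fold change of K562+L over K562 in 6 equal classes of transcript length, from the fit as reported (black circles) and with length and GC offsets (grey squares). Right, the median deviation of each library's log2 CPM from its group mean in the same classes, with K562 as grey circles and K562+L as orange triangles. The reported medians rise from -0.32 to 0.27 across the classes, and K562 replicates 1 and 3 run in opposite directions.

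Each gene was tested by quasi-likelihood in edgeR, with p-values adjusted after Benjamini and Hochberg. A gene is referred to as called where the adjusted p was under 0.05 and the change exceeded 1 on the log2 scale, and 826 genes were, 6.39% of those tested. Of them, 308 (2.38%) were higher and 518 (4.01%) lower in K562+L. At the adjusted p alone, 4821 genes (37.3%) passed, 2359 higher (18.2%) and 2462 lower (19%), and the group counts below are read against these shares. Without adjustment 47.7% had a p under 0.05, and in 51.5% the libraries of the groups did not overlap. Called genes were mostly of low expression, with a median of the mean CPM of 3.60 for those higher and 3.80 for those lower, against 30.2 over all genes tested. The count at the adjusted p alone fell to 2871 without K562 replicate 2, to 2971 without K562+L replicate 1 and to 3058 without K562+L replicate 3.

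**Figure D2:**
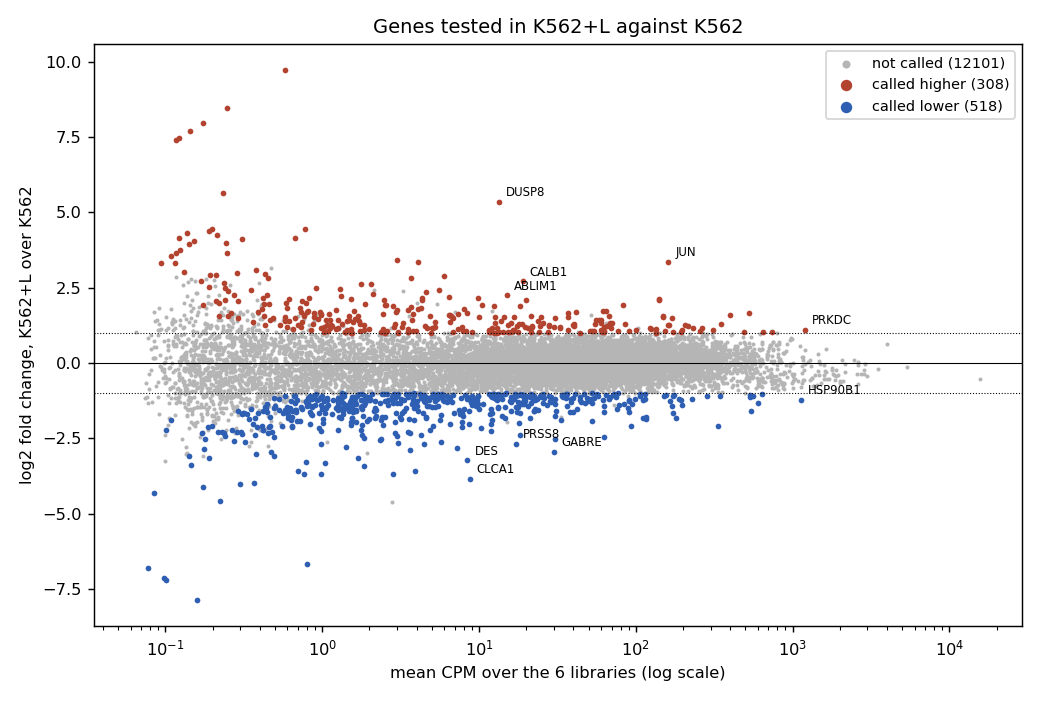
Log2 fold change of K562+L over K562 for the 12927 genes tested, against the mean CPM on a log scale, with called genes in red (308 higher) and blue (518 lower). Dotted lines mark the fold threshold, and the points beyond 6 on either side belong to genes near 0 CPM in a group.

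Among genes that reached 5 CPM in either group, the steepest rise was that of DUSP8, a dual-specificity phosphatase of the stress-activated JNK and p38 kinases on chromosome 11 (GRCh38, 1554044 to 1571920). DUSP8 stood at 0.879, 0.508 and 0.535 CPM in K562 and at 27.1, 27.2 and 24.3 CPM in K562+L. The K562+L libraries lay far above all K562 libraries, a difference of 5.35 on the log2 scale (SE, its standard error, 0.21, adjusted p = 2.0e-05). HMCN1, which encodes the matrix protein hemicentin, went from 0.273, 0.715 and 0.560 CPM to 5.53, 5.25 and 5.71 CPM. SHC2, an adaptor of receptor tyrosine kinases, went from 0.546, 0.588 and 1.06 CPM to 8.25, 7.33 and 6.80 CPM. Both were about 10-fold higher, by 10.6-fold and 10.2-fold. SAMD4A, an RNA-binding repressor of translation, rose 7.41-fold, QRICH2 7.01-fold and CALB1, a calcium buffer, 6.59-fold. ABLIM1, which binds actin, rose 4.74-fold. ERV3-1-ZNF117, a read-through symbol that shares its sequence with neighbouring genes and is therefore uncertain and has no value with the offsets, had a log2 fold change of 2.36 (SE 0.49). ASAH2, a ceramidase, stood at 12.1 and 13.5 CPM in K562+L replicates 1 and 2 but at 2.42 CPM in replicate 3, just above the K562 libraries at 1.42 to 1.97 CPM. ASAH2 did not pass in 2 of the 18 alternatives, among them the fit without K562+L replicate 1 (adjusted p = 0.053). Its highest adjusted p over the alternatives was 0.095.

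In the other direction, CLCA1, a secreted regulator of chloride conductance, fell from 17.0, 16.8 and 15.0 CPM to 0.949, 0.937 and 1.5 CPM (log2 fold change -3.84, SE 0.21, adjusted p = 4.8e-05). DES, the muscle intermediate filament desmin, was 9.37-fold lower, and PRSS8, the membrane serine protease prostasin, was 6.41-fold lower. GABRE, a GABA receptor subunit, fell from 55.5, 49.4 and 54.4 CPM to 6.81, 6.87 and 7.07 CPM, with no library near the other group. SUSD3, RASGRP2 and TMPRSS3 fell with log2 fold changes of -2.81, -2.68 and -2.66. The remaining genes at this end, ADM2, CHAC1 and INHBE, are secreted or enzymatic products known as ATF4 targets and are described with that group.

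**Figure D3:**
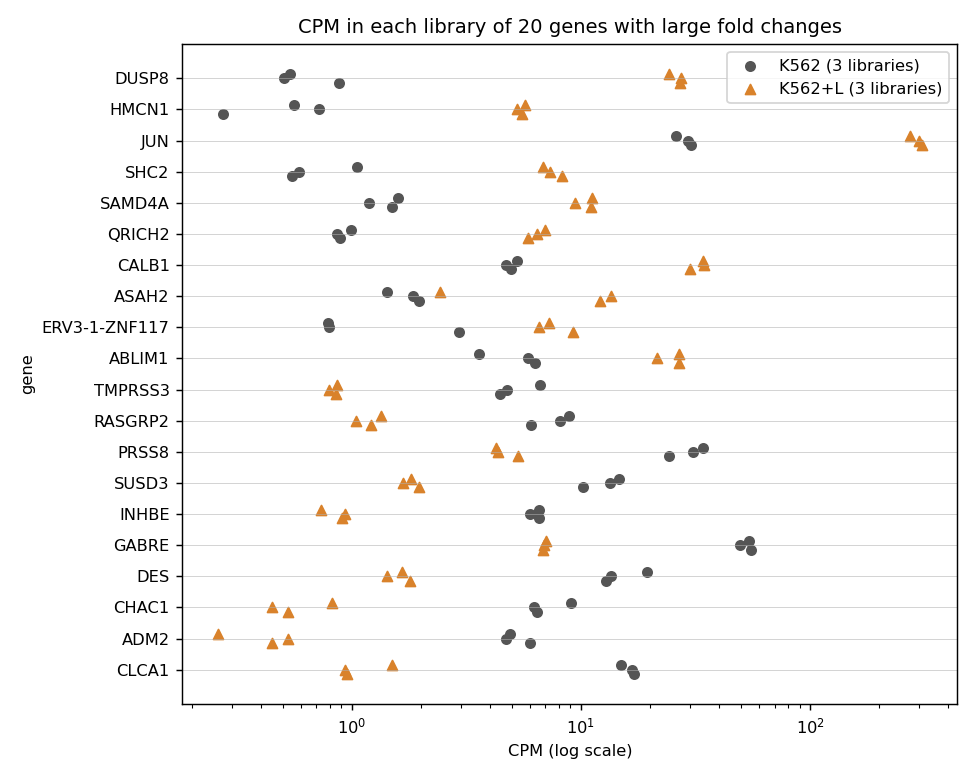
CPM on a log scale in each K562 library (grey circles) and each K562+L library (orange triangles) for the 10 called genes in each direction with the largest fold change among those of at least 5 CPM in the higher group. The groups are separate for all 20 genes, and ASAH2 in K562+L replicate 3, at 2.42 CPM, lies nearest to the other group.

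AP-1 is the dimer of JUN and FOS family proteins at the end of the MAP kinase cascades. Of the 14 members of the list AP-1 and ATF3, 4 were higher and 3 lower at the adjusted p alone, and 3 and 1 were called. JUN, the partner common to most AP-1 dimers, was at 30.3, 29.4 and 25.9 CPM in K562 and at 309, 300.04 and 273 CPM in K562+L, a 10.3-fold difference (log2 fold change 3.36, SE 0.10, adjusted p = 6.8e-06). FOSL2, one of its partners, went from 1.10, 1.11 and 0.995 CPM to 4.36, 3.93 and 3.89 CPM. ATF3, a stress-induced member that can pair with JUN, went from 23.0, 23.7 and 23.7 CPM to 51.5, 62.0 and 59.1 CPM. JUND was at a log2 fold change of 0.39 (SE 0.12) and passed only with all libraries or without K562 replicate 3 or K562+L replicate 3. JDP2, a repressor that binds the same sites, moved the opposite way, from 3.22, 2.73 and 4.12 CPM to 0.246, 0.390 and 0.306 CPM, and was 10.7-fold lower (log2 fold change -3.41, SE 0.28, adjusted p = 2.2e-04). JUNB and MAFF also fell, with log2 fold changes of -0.76 and -0.58. With the offsets JUND was at 0.71 and JUNB at -0.49. FOS and FOSB, the partners best known from growth factor signalling, did not pass, with log2 fold changes of 0.53 (adjusted p = 0.10) and 0.60 (adjusted p = 0.17). Both passed without K562 replicate 1, and FOS also without K562+L replicate 2.

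The MAP kinase phosphatases end the signal of these cascades. Of 8 members tested, 4 were higher and 1 lower, and 3 were called, all higher. Besides DUSP8 these were DUSP1, which acts on p38, JNK and ERK, and DUSP16, which acts on JNK. DUSP1 went from 31.6, 29.3 and 28.9 CPM to 98.0, 93.2 and 104 CPM. DUSP16 went from 23.8, 18.7 and 16.7 CPM to 63.5, 58.6 and 67.6 CPM. DUSP10, also a phosphatase of p38 and JNK, rose by 0.75 on the log2 scale. DUSP9, which prefers ERK, fell by 0.64, or was at -0.41 with the offsets. DUSP5, DUSP6 and DUSP7, which also act on ERK, did not pass (adjusted p = 0.98, 0.21 and 0.36). DUSP6 was at 0.473 CPM or less in every library and passed without K562+L replicate 3.

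The 250 bases before the RefSeq start sites of DUSP8 and DUSP1 (GRCh38.p14, on the minus strand) hold the palindrome of the cyclic AMP response element, TGACGTCA, to which ATF and CREB proteins and JUN with ATF partners are known to bind. PPP1R15A, a stress gene described next, holds it too. They are shown because the motif was more frequent before genes that rose than before genes that fell. Capitals mark the motif.
DUSP8, chr11:1572332-1572396: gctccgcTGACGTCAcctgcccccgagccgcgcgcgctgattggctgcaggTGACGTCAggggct
DUSP1, chr5:172771296-172771330: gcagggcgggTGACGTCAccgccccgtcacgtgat
PPP1R15A, chr19:48872351-48872385: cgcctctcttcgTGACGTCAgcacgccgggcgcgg

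Counted on both strands from 250 bases before to 50 after each RefSeq start, TGACGTCA was present in 3.69% of 352 promoters of genes called higher and in 0.896% of 558 promoters of genes called lower. The share was 2.76% of 15090 promoters over all genes tested and 1.85% of all 35116 promoters in the table. At the adjusted p alone the shares were 3.73% for genes higher and 1.51% for genes lower. The AP-1 site TGANTCA, a different word, was in 9.66% of the promoters of genes called higher and 5.56% of those of genes called lower, against 5.22% over all genes tested, but at the adjusted p alone in 5.49% and 4.36%. Several starts of 1 gene can share bases, and a match is a description of letters and not of binding. FADS1 and MAFF, which fell, also held the palindrome.

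Immediate early genes are the rapid targets of these cascades. Of 39 tested, 11 were higher (28.2%, against 18.2% of all genes tested) and 7 lower (17.9% against 19%). With the offsets 4 were lower. Called members were 6 higher and 3 lower, 23.1% of the list against 6.39%. PPP1R15A, which encodes the GADD34 subunit that reverses the phosphorylation of eIF2, went from 87.6, 82.2 and 97.8 CPM to 244, 251 and 258 CPM (log2 fold change 1.49, SE 0.09, adjusted p = 7.8e-05). RHOB, a small GTPase induced by stress, rose 3.18-fold, CSRNP1 2.81-fold and BTG2, an antiproliferative gene, 2.54-fold. KLF6 and TNFAIP3 were the other called members that rose, by 2.11 and 1.18 on the log2 scale. KLF6 stood at 266, 124 and 294 CPM in K562+L, so that its replicate 2 was nearer to the K562 libraries at 45.3 to 64.4 CPM. NFKBIA, ID1 and ID3 were called lower, with log2 fold changes of -1.11, -1.74 and -1.34, and NFKBIA was at -0.93 with the offsets. EGR1, named after its values were seen because it is the classical target of ERK, was at 374, 319.6 and 309 CPM in K562 and at 177, 132 and 202 CPM in K562+L (log2 fold change -0.97, adjusted p = 3.2e-03).

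Among 19 genes of ERK feedback and output, 2 were higher and 6 lower. CCND1, the cyclin D1 gene, went from 21.3, 20.3 and 17.7 CPM to 4.23, 3.73 and 4.4 CPM (log2 fold change -2.26, SE 0.12, adjusted p = 4.8e-05). The ERK-induced factor ETV4 fell 2.14-fold (log2 fold change -0.93 with the offsets, where it was not called), and PHLDA1 rose from 3.02 to 3.40 CPM in K562 to 8.09 to 11.5 CPM in K562+L. EPHA4, called lower, and SPRED3, called higher, were below 1.4 CPM in every library, and neither passed without K562 replicate 2 or 3 or without K562+L replicate 2 or 3. The other 11 members passed in neither direction.

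**Figure D4:**
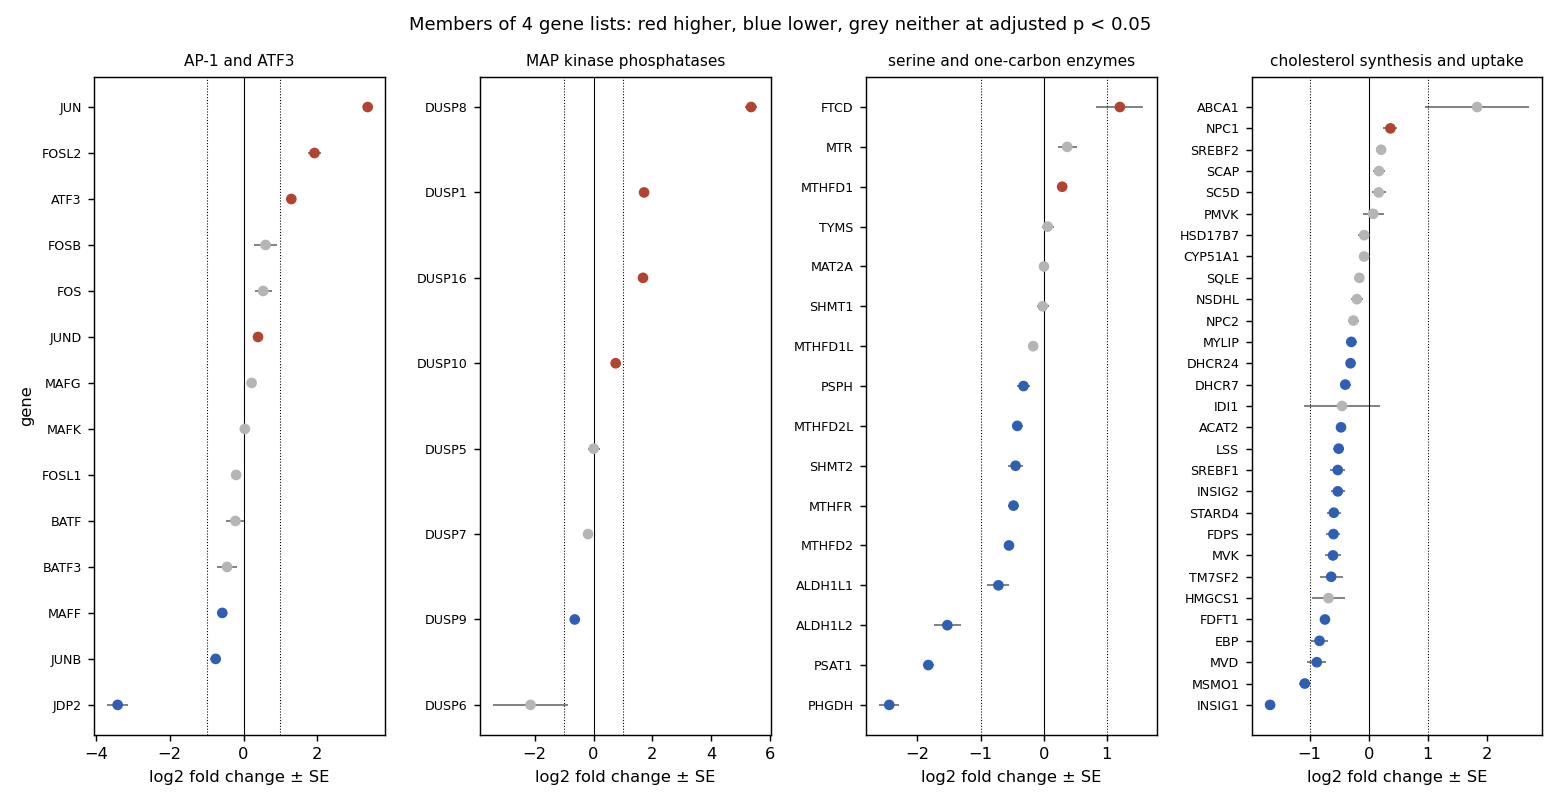
Log2 fold change of K562+L over K562 with its standard error for the members of 4 lists that are reported here, in red where higher, blue where lower and grey where neither at an adjusted p under 0.05. Dotted lines mark the fold threshold of 1. JUN and DUSP8 lie at the right end, PHGDH, PSAT1 and JDP2 at the left, and 16 of the 29 cholesterol genes drawn are blue.

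ATF4 is the factor whose translation rises when eIF2 is phosphorylated, and its targets supply amino acids or adjust to their lack. Of 24 ATF4 and stress response regulators tested, 5 were higher and 11 lower, and 8 of those lower were called, with 1 called higher, PPP1R15A. ADM2, a secreted peptide of the adrenomedullin family, fell from 6.02, 4.72 and 4.89 CPM to 0.447, 0.524 and 0.259 CPM. CHAC1, which degrades glutathione, fell from 6.41, 6.25 and 9.05 CPM to 0.525, 0.446 and 0.815 CPM. INHBE, an activin subunit, fell from 6.59, 5.98 and 6.57 CPM to 0.905, 0.937 and 0.732 CPM. All 3 K562+L libraries lay under 1 CPM for each of these genes, which were 12.8-fold, 12.1-fold and 7.44-fold lower. DDIT4, an inhibitor of mTORC1, fell 3.02-fold (log2 fold change -1.59, SE 0.11, adjusted p = 1.4e-04).

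Some members were looked up after the values were seen. ATF4 itself was at 441, 459 and 509.7 CPM in K562 and at 277, 309 and 299.9 CPM in K562+L, a log2 difference of -0.67 (SE 0.09, adjusted p = 1.4e-03). TRIB3, an ATF4 target that restrains it, and STC2, a secreted glycoprotein, fell by 1.06 and 1.08, and TRIB3 was at -0.76 with the offsets. SESN2 fell by 0.79. DDIT3, which encodes CHOP and is usually listed with the same targets, was in contrast higher, at 26.6, 26.7 and 31.0 CPM in K562 and at 45.8, 57.4 and 55.7 CPM in K562+L (log2 fold change 0.92, SE 0.12, adjusted p = 1.4e-03), and was called at 1.20 with the offsets. With the ATF3 and PPP1R15A values above, the list held members that moved apart.

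Serine synthesis, which ATF4 is known to drive, was lower. Of 17 serine and one-carbon enzymes, 9 were lower and 2 higher, the latter 0 without K562 replicate 2, K562+L replicate 1 or K562+L replicate 3. PHGDH, the first enzyme of the pathway, went from 90.6, 106 and 121 CPM to 22.0, 20.4 and 16.0 CPM (log2 fold change -2.45, SE 0.16, adjusted p = 8.8e-05). PSAT1, which follows it, went from 181, 169 and 167 CPM to 46.5, 50.7 and 48.7 CPM. PSPH, the last step, passed at a log2 fold change of -0.32 only, and not in 6 of the 18 alternatives, among them those without K562 replicate 2 or 3 or K562+L replicate 1 or 3. In the mitochondrial folate branch, ALDH1L2 fell by 1.53, MTHFD2 by 0.55, SHMT2 by 0.44 and MTHFD2L by 0.42. The cytosolic SHMT1, TYMS and MAT2A did not pass, with log2 fold changes of -0.02, 0.06 and 0.00, and MTHFD1 was higher by 0.29. Neither SHMT2 nor MTHFD1 passed without K562 replicate 2 or K562+L replicate 3, nor MTHFD1 without K562+L replicate 1. With the offsets MTHFD1 was at 0.06 and did not pass, and TYMS passed at 0.18.

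Of 21 enzymes of asparagine, proline and cysteine, 9 were lower and 3 higher, the latter 1 without K562 replicate 2 or 3 and 0 without K562+L replicate 2 or 3. ASNS, asparagine synthetase, went from 287, 283 and 269 CPM to 80.1, 85.2 and 71.5 CPM (log2 fold change -1.83, SE 0.09, adjusted p = 4.8e-05). ASS1 of arginine synthesis fell 5.68-fold from a low level, GPT2, an alanine aminotransferase, 2.63-fold, and CTH, which makes cysteine from cystathionine, by 1.01 on the log2 scale (-0.95 with the offsets, not called). Of 19 amino acid transporters, 4 were higher and 4 lower, and the only called member was SLC7A11, the cystine importer, at 77.9, 56.3 and 44.9 CPM in K562 and 18.6, 16.0 and 23.5 CPM in K562+L. Of 20 cytosolic tRNA synthetases, 5 were higher (3 without K562 replicate 2 or K562+L replicate 1 or 2) and 8 lower, and none was called. WARS1 lay at the threshold, with 458, 458 and 492 CPM against 239, 232 and 233 CPM (log2 fold change -1.0, and -1.01 and called with the offsets), and CARS1 fell by 0.85.

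CHAC1, ASNS and HERPUD1, the last a gene of the endoplasmic reticulum, are known targets of ATF4 through composite C/EBP-ATF elements, and their promoters are shown for that element. Capitals mark TGATGNAA or its reverse complement on the gene's strand.
CHAC1, chr15:40953249-40953283: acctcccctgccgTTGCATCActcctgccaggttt
ASNS, chr7:97872456-97872490: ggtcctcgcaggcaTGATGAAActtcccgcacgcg
HERPUD1, chr16:56931952-56931986: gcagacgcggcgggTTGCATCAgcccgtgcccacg

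The element was in 15.2% of 33 promoters of the ATF4 list, against 2% over all genes tested. It was in 2.87% of the promoters of genes called lower and 1.70% of those of genes called higher. ATF3, which was called higher, held the element, as did CARS1 and JDP2, which fell. In the serine list its 3 matches were all alternative starts of 1 gene, MTHFD1L, which did not pass, and PHGDH and PSAT1 held none.

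The unfolded protein response raises the folding capacity of the endoplasmic reticulum. Of 27 genes tested, 0 were higher and 12 lower at the adjusted p alone, and 6 were called lower. The median log2 fold change was -0.29, against 0.04 for the typical length class of its members and 0.00 over all genes tested. HSP90B1 and HSPA5 encode GRP94 and BiP, the main chaperones of the compartment. HSP90B1 went from 1611, 1581 and 1559.7 CPM to 622, 707 and 707 CPM (log2 fold change -1.22, SE 0.08, adjusted p = 7.9e-05). HSPA5 went from 748, 746 and 787 CPM to 339.9, 358 and 366 CPM (log2 fold change -1.10, SE 0.07, adjusted p = 8.9e-05). HERPUD1 and DERL3, both of the degradation pathway for misfolded proteins, fell 2.27-fold and 3.01-fold. The exons of DERL3 overlap 2923 bases of SMARCB1 on the opposite strand, and the strand used in counting is not given. MANF and SDF2L1 were the other called members, with log2 fold changes of -1.03 and -1.08, and neither was called with the offsets, at -0.73 and -0.61. Among 47 heat shock proteins and chaperones, 7 were higher and 8 lower (4 without K562 replicate 2, K562+L replicate 1 or K562+L replicate 3, and 13 each way with the offsets), and HSPA5 and HSP90B1 were the only called members.

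The stretch before the start of both chaperone genes is shown because CCAAT boxes, bound by NF-Y and part of the element that ATF6 recognises, recur in it. Capitals mark CCAAT or its reverse complement on the gene's strand.
HSPA5, chr9:125241384-125241453: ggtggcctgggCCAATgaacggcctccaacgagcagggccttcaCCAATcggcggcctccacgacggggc
HSP90B1, chr12:103930260-103930346: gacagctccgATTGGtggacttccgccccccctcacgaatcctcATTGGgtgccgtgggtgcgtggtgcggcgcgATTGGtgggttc

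CCAAT was in 83.3% of 30 promoters of the list, against 34.7% over all genes tested. Among genes called lower it was in 33.7% and among genes called higher in 34.4%.

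Genes of cholesterol synthesis and uptake, among them many SREBP2 targets, were lower in 18 of the 32 tested, and 3 of these were called. NPC1 was higher, and the median log2 fold change was -0.46, against -0.04 for the typical length class of its members. INSIG1, which holds SREBP in the endoplasmic reticulum and is itself an SREBP target, was at 279, 256 and 256 CPM in K562 and at 79.4, 85.7 and 83.7 CPM in K562+L (log2 fold change -1.67, SE 0.08, adjusted p = 4.8e-05). MSMO1 of the later pathway went from 50.5, 44.6 and 43.6 CPM to 21.7, 22.3 and 21.6 CPM. In the mevalonate steps MVD fell by 0.88, FDFT1 by 0.74, and MVK and FDPS by 0.60. With the offsets MVD was at -0.58, FDPS at -0.37 and NPC1 at 0.23. HMGCS1 did not pass at -0.68 (adjusted p = 0.095), and stood at 278, 472 and 467 CPM in K562 and at 157, 284 and 319 CPM in K562+L. IDI1 ranged from 41.6 to 195 CPM in K562 and from 34.9 to 128 CPM in K562+L. SQLE did not pass either, at -0.16, but passed at -0.21 with the offsets. The low ABCA1 was at 0.413 CPM or less in every library. HMGCS1 passed without K562 replicate 1, and NPC1 did not pass without K562 replicate 2 or 3 or K562+L replicate 1 or 3. SREBF1 was lower by 0.52, but not past the threshold without K562 replicate 2 or K562+L replicate 3, and SREBF2 was at 0.21 (adjusted p = 0.089).

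Fatty acid synthesis and desaturation showed 10 of 19 members lower and 0 higher. FADS1, the delta-5 desaturase on chromosome 11 (GRCh38, 61799625 to 61829318), went from 884, 798 and 769.9 CPM to 278, 255 and 290.1 CPM (log2 fold change -1.58, SE 0.09, adjusted p = 5.9e-05). It shares 490 exon bases with FADS2 on the opposite strand, which had a log2 fold change of -0.73. ELOVL6 and FADS3 fell by 1.03 and 1.23, and FADS3 was at -0.98 with the offsets. SCD, named after its values were seen because it is the main desaturase of this pathway, was at 1049, 927 and 880.2 CPM in K562 and at 532, 494 and 568 CPM in K562+L (log2 fold change -0.84, and -1.01 and called with the offsets).

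The ribosome gave opposite pictures for its assembly factors and for its proteins. The small-subunit processome is the nucleolar particle that folds and cuts the precursor of 18S ribosomal RNA. Of its 47 members, 31 were higher and 1 lower at the adjusted p alone, 66.0% against 18.2% of all genes tested. The changes were small, with a median log2 fold change of 0.40 against 0.04 for the typical length class, and 1 member was called. That was UTP20, at 117, 99.6 and 83.1 CPM in K562 and 209, 185 and 232 CPM in K562+L (log2 fold change 1.06, SE 0.14, adjusted p = 1.5e-03). With the length and GC offsets UTP20 was at 0.75 and 33 members were higher and 3 lower. Of 17 genes of RNA polymerase I and nucleolar proteins, 7 were higher and 1 lower. POLR3C, a subunit of RNA polymerase III placed in the same list, went from 48.5, 47.0 and 53.1 CPM to 121, 119 and 121 CPM. MYC, whose product binds E-boxes before many genes of this kind, was looked up for that reason and was at 119, 147 and 144 CPM in K562 and 231, 239 and 214 CPM in K562+L (log2 fold change 0.74, adjusted p = 1.9e-03).

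The promoter of UTP20 holds such an E-box, CACGTG, close to the start, marked by capitals.
UTP20, chr12:101280075-101280104: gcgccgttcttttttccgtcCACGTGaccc

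CACGTG was in 46.3% of 41 promoters of the processome list, against 9.44% over all genes tested, 10.2% for genes called higher and 7.35% for genes called lower.

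Cytosolic ribosomal proteins were lower almost throughout. Of 85 tested, 72 were lower and 1 higher at the adjusted p alone, with a median log2 fold change of -0.60. Their transcripts are short, with a median of 910 bases, and genes of that length class had a median of -0.32. With the length and GC offsets 52 were lower and 4 higher and the median was -0.27, and in the fits that left out 1 library 44 (without K562+L replicate 1) to 80 (without K562 replicate 1) were lower. The summed level of the list ran from 79416 to 110695 CPM in K562 and from 59880 to 69041 CPM in K562+L. RPS27, one of 3 called members, was at 763, 767 and 1049 CPM against 365, 455 and 436 CPM, and its log2 fold change of -1.04 became -0.41 with the offsets. RPS29 and RPL3L were the others, RPL3L at 0.611 CPM or less in every library and past the threshold only without K562 replicate 1 among the fits that left out a library. RPS29 did not pass without K562+L replicate 1 (adjusted p = 0.055) and was at -0.81 with the offsets, where it was not called. Many of these genes have near-identical pseudogenes, and the handling of shared reads is not given.

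Nuclear genes of oxidative phosphorylation, also short, gave 47 lower and 0 higher of 77, with a median of -0.54, against -0.32 for the length class, 30 lower without K562+L replicate 1, and 37 lower and 5 higher with the offsets. Mitochondrial ribosomal proteins gave 24 lower and 5 higher of 77, but 20 lower and 22 higher with the offsets, and 10, 5 and 7 lower without K562 replicate 2, K562+L replicate 1 and K562+L replicate 3. Mitochondrial tRNA synthetases gave 9 higher and 1 lower of 20. Of 51 translation initiation and elongation factors, 10 were higher and 11 lower and none was called. With 1 library left out, 5 (K562 replicate 2 or K562+L replicate 2) to 12 (K562 replicate 1) were higher and 6 (K562 replicate 2 or K562+L replicate 1) to 17 (K562 replicate 1) lower. The elongation factor genes EEF1A1 and EEF1B2, whose mRNAs like those of ribosomal proteins begin with a 5′ terminal oligopyrimidine tract, fell by 0.52 and 0.95. EEF1A1 stood at 16971, 18783 and 19768 CPM in K562 and at 12818, 12864 and 13106 CPM in K562+L.

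Nonsense-mediated decay removes mRNAs with premature stop codons. Of 15 factors of nonsense-mediated decay, 11 were higher and 1 lower, with a median of 0.45 against 0.12 for the typical length class. SMG9, a subunit that regulates the SMG1 kinase, was at 36.0, 38.2 and 40.1 CPM in K562 and at 86.5, 83.3 and 74.1 CPM in K562+L (log2 fold change 1.09, SE 0.10, adjusted p = 2.9e-04), and was at 0.97 with the offsets. Of 14 genes of ribosome quality control and rescue, 5 were higher and 3 lower, but 2 were higher without K562 replicate 2 and 3 without K562 replicate 3, K562+L replicate 1 or K562+L replicate 3, and 0 were lower without K562 replicate 2 or any K562+L library. ABCE1, the recycling factor, rose by 0.63 and ASCC3, a helicase that takes apart collided ribosomes, by 0.77, or 0.46 with the offsets.

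K562 cells serve as a model of erythroid genes. Of 27 globins and haem synthesis genes, 13 were lower and 2 higher. The median was -0.22, against -0.32 for the typical length class of the members. Taken gene by gene, the median difference of a member from its own length class was -0.14. With the offsets the median of the list was -0.10. HBE1 and HBZ are embryonic, HBG1 and HBG2 fetal, and HBB adult globin genes. HBB was at 17.3, 15.5 and 22.5 CPM in K562 and 6.27, 6.07 and 5.26 CPM in K562+L (log2 fold change -1.65, SE 0.16, adjusted p = 4.4e-04). HBE1 was at 77.3, 93.8 and 112 CPM against 45.0, 46.4 and 37.4 CPM, and 37 of its exon bases lie in HBG2. HBZ, taken up here with HBG1 and HBG2 as markers of the line, fell by 1.13 on the log2 scale, HBG1 by 0.75 and HBG2 by 0.71, the last pair near-identical and therefore uncertain. AHSP, the chaperone of alpha globin, was at 14.5, 15.7 and 20.7 CPM against 3.12, 3.84 and 4.39 CPM (log2 fold change -2.16). Globin transcripts are short, and K562 replicate 3 was the highest library for each of them. With the offsets HBE1 was at -0.78, HBZ at -0.61, HBG1 at -0.35 and HBG2 at -0.22, none of them called, and 12 members were lower and 6 higher.

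Of 17 genes of iron uptake, storage and export, 8 were lower and 2 higher (5 with the offsets). TFRC, the transferrin receptor, went from 837, 719 and 625 CPM to 344, 329 and 376 CPM (log2 fold change -1.06, adjusted p = 7.4e-04), and SLC40A1, the iron exporter ferroportin, from 76.9, 68.8 and 64.1 CPM to 28.3, 29.9 and 28.5 CPM. HJV was at 1.71, 2.18 and 3.53 CPM in K562 and at 0.503, 0.279 and 0.306 CPM in K562+L. NCOA4, the receptor that sends ferritin to autophagy, was higher, at 139, 238 and 219 CPM against 405, 416 and 459 CPM. Red cell membrane proteins gave 6 higher and 7 lower of 28. ERMAP, an erythroid adhesion protein, rose 2.42-fold and the glucose transporter SLC2A1 2.15-fold. Of 25 erythroid and stem cell transcription factors, 5 were higher (1 without K562+L replicate 1 or 2, and 3 without any of K562 replicate 2, K562 replicate 3 and K562+L replicate 3) and 4 lower (9 with the offsets) and none was called, with LMO2 and HHEX lower by 0.91 and 0.68. Among 21 megakaryocyte and platelet genes, 4 were higher (2 without K562 replicate 2 or K562+L replicate 1) and 6 lower, the latter 3 without K562 replicate 2 or K562+L replicate 1. F2RL3, a thrombin receptor, fell from 26.8, 31.7 and 33.1 CPM to 6.33, 6.05 and 5.21 CPM, PDGFB, the growth factor chain, fell 4.31-fold and the low P2RX1 fell by 3.70, whereas GP6 rose by 1.37.

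Genes of DNA replication and mitosis leaned upwards without large changes. Of 50 replication genes, 18 were higher and 1 lower, and of 50 mitosis genes 19 were higher and 5 lower, and none was called in either list. ORC5, of the origin recognition complex, was at 76.7, 78.0 and 79.0 CPM in K562 and 131, 146 and 144 CPM in K562+L, and NCAPG, a condensin subunit, rose by 0.86. MKI67, the proliferation marker, was at 462, 342 and 314 CPM against 603, 492 and 714 CPM (log2 fold change 0.69, SE 0.18, adjusted p = 0.018) and did not pass without K562 replicate 2 or K562+L replicate 1 or 3. With the offsets it was at 0.34. The higher counts depended on single libraries. They were 7 and 11 without K562 replicate 2, 8 and 12 without K562+L replicate 1, 10 for replication without K562+L replicate 2 and 11 each without K562+L replicate 3. Without K562 replicate 2 or 3, or K562+L replicate 1 or 3, 1 mitosis gene was lower, and without K562+L replicate 2 there were 3. Without K562 replicate 1, 5 replication genes were lower, and 6 with the offsets. Of 30 CDK inhibitors and cyclins, 7 were higher and 8 lower, the latter 4 without K562 replicate 2 or K562+L replicate 3 and 5 without K562+L replicate 1. CCND1 and CDKN1C, which encodes the inhibitor p57, were the called members, and CDKN1C went from 27.3, 26.5 and 25.9 CPM to 9.33, 14.7 and 7.89 CPM. CDKN1A, the p21 gene, looked up as the best known inhibitor, was at 11.5, 12.9 and 11.0 CPM against 19.3, 21.3 and 21.8 CPM (log2 fold change 0.82, adjusted p = 1.3e-03). Replication-dependent histones, whose mRNAs normally lack a poly(A) tail and of which many are near-identical, gave 14 higher and 2 lower of 51, with 9 higher without K562 replicate 2, 8 without K562+L replicate 1 and 25 with the offsets.

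At the adjusted p alone, 35% of the BCL2 family and 27.3% of caspases and death receptors were lower, against 19% of all genes tested. The shares higher were 5% and 4.55%, against 18.2%, and the shares called 5% and 0%, against 6.39%. Of 20 members of the BCL2 family, 7 were lower (3 without K562+L replicate 1 and 4 without K562+L replicate 3) and 1 higher, and BAD, a sensitizer, was the only called member, at 10.1, 12.4 and 14.1 CPM against 5.63, 6.07 and 4.56 CPM (log2 fold change -1.17). With the offsets BAD was at -0.77 and not called. It shares 404 exon bases with GPR137 on the opposite strand. BAX was at 39.0, 45.5 and 57.2 CPM against 35.1, 38.3 and 30.8 CPM (log2 fold change -0.44, adjusted p = 0.051) and BCL2 at 7.58, 5.61 and 5.63 CPM against 5.38, 5.57 and 7.06 CPM (log2 fold change -0.06, adjusted p = 0.80). BAX passed in 9 of the 18 alternatives, among them the fit without K562 replicate 1. With the offsets BAX was at -0.15 (adjusted p = 0.10) and BCL2 at -0.32 (adjusted p = 0.056), and neither passed. Of 22 caspases and death receptors, 6 were lower and 1 higher, and 2 or 3 were lower in each fit without K562 replicate 2 or 3 or any K562+L library.

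The autophagy machinery gave 4 higher and 14 lower of 49. SQSTM1, the p62 receptor, was at 116, 129.8 and 139 CPM in K562 and 302, 309 and 288 CPM in K562+L (log2 fold change 1.23, SE 0.09, adjusted p = 1.7e-04). WIPI1, which binds the forming membrane, was at 27.7, 26.6 and 28.9 CPM against 8.14, 9.10 and 9.36 CPM (log2 fold change -1.65). Both share exon bases with genes on the opposite strand, SQSTM1 1582 with MRNIP and WIPI1 828 with ARSG, of which neither was called. BECN1 and ATG5 fell by 0.43 and 0.40 and MAP1LC3B, the LC3B gene, rose by 0.34. On the opposite strand BECN1 shares 795 exon bases with CNTD1, at a log2 fold change of 2.64, and 300 with PSME3, at 0.09, neither called. ATG5 did not pass without K562 replicate 2 or K562+L replicate 1 or 2, nor MAP1LC3B without K562 replicate 2 or K562+L replicate 2 or 3. The count of members lower was 6 without K562 replicate 2, 7 without K562+L replicate 1 or 3 and 9 without K562+L replicate 2, and 8 were higher without K562 replicate 1, 2 without K562 replicate 2 or K562+L replicate 3 and 9 with the offsets. Of 46 lysosomal genes, 9 were higher and 14 lower (8 without K562 replicate 2 or 3 or K562+L replicate 2 or 3), with CD63, a membrane tetraspanin, the only called member, at 254, 275 and 326 CPM against 108, 111 and 106 CPM. ABCB1, the gene of the drug pump P-gp, was at 1.63, 1.80 and 1.67 CPM against 3.71, 3.71 and 4.97 CPM (log2 fold change 1.28, SE 0.19, adjusted p = 2.1e-03).

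**Figure D5:**
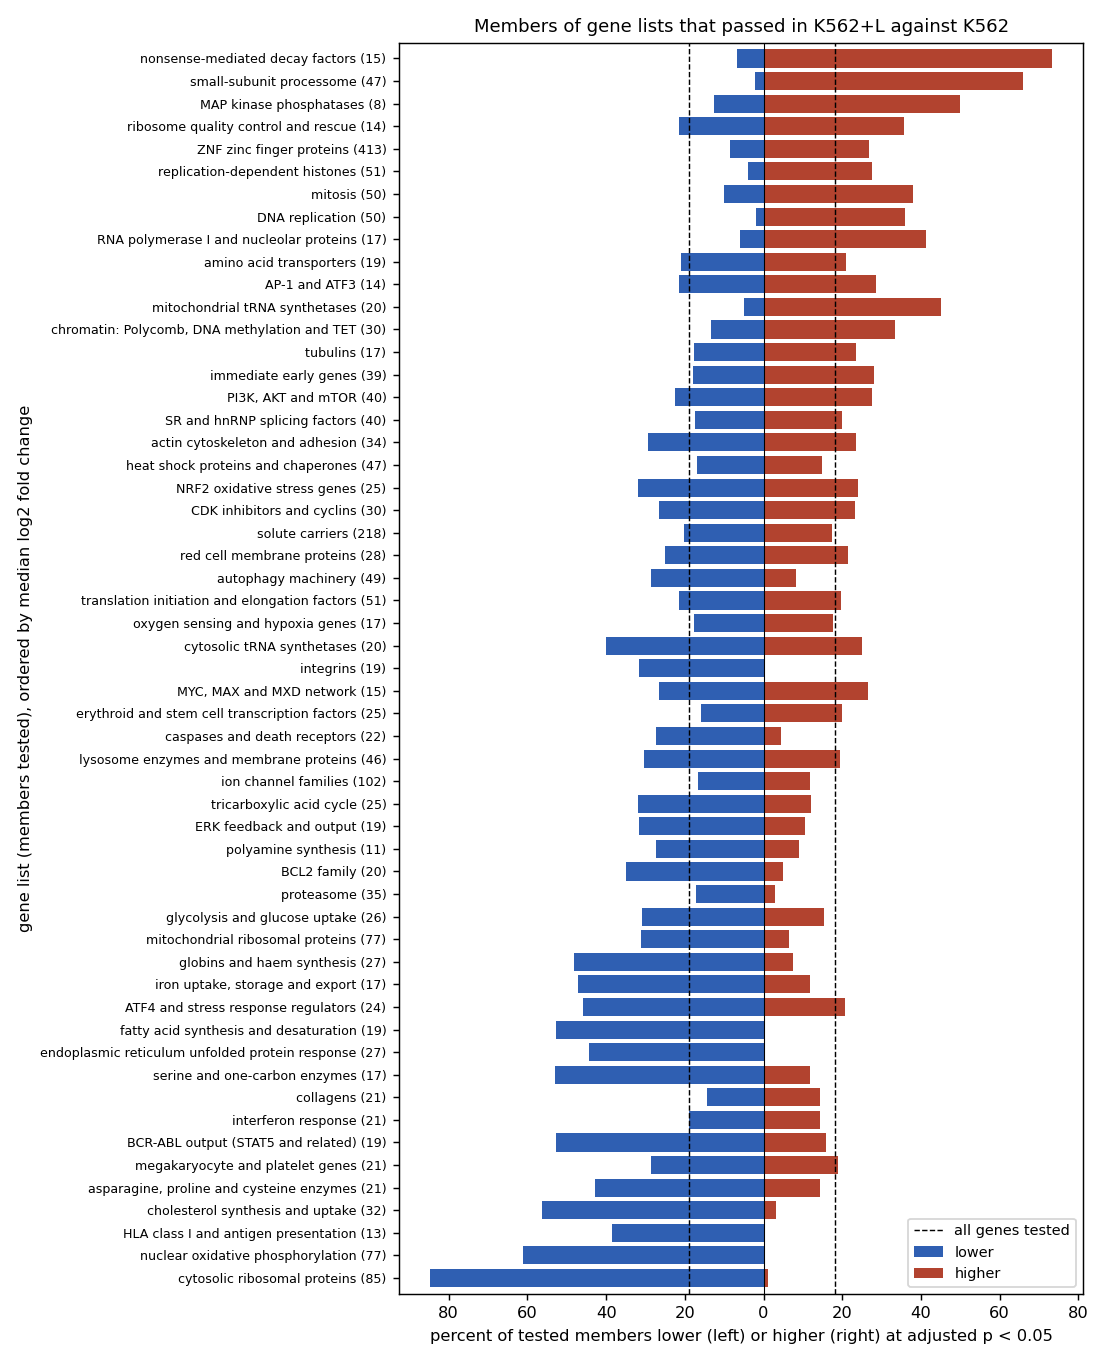
Percent of the tested members of each gene list that were lower (blue, to the left) or higher (red, to the right) in K562+L at an adjusted p under 0.05, with lists of at least 8 tested members ordered by their median log2 fold change. Dashed lines mark the shares over all genes tested, 19% lower and 18.2% higher. Cytosolic ribosomal proteins reach furthest to the left and nonsense-mediated decay factors furthest to the right.

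Downstream of BCR-ABL, 10 of 19 listed output genes were lower (6 without K562 replicate 2) and 3 higher, CCND1, ID1 and PHLDA1 being the called members. In the PI3K, AKT and mTOR list, 11 were higher (7 without K562+L replicate 1) and 9 lower of 40. IRS2 and IRS1, the adaptors of insulin signalling, and FOXO3, the factor that AKT holds out of the nucleus, were called higher, IRS1 at 1.01, or 0.74 and not called with the offsets. IRS2 was at 12.5, 10.4 and 9.71 CPM against 32.9, 31.1 and 31.8 CPM and FOXO3 at 36.5, 32.4 and 26.7 CPM against 77.5, 72.7 and 84.4 CPM. DDIT4 was the called member that fell. Of 17 genes of oxygen sensing and hypoxia, 3 were higher (5 without K562 replicate 1) and 3 lower (5 each with the offsets), and EPAS1, the HIF-2 alpha gene, was called, at 36.9, 33.1 and 34.8 CPM against 134, 125 and 136 CPM (log2 fold change 1.91, SE 0.09, adjusted p = 3.8e-05). In central metabolism IDH1, the cytosolic isocitrate dehydrogenase, fell from 49.4, 47.9 and 44.0 CPM to 14.6, 13.0 and 14.1 CPM and ALDOC, an aldolase, fell by 1.58 on the log2 scale. Glycolysis and glucose uptake gave 4 higher and 8 lower of 26 and the tricarboxylic acid cycle 3 higher and 8 lower of 25. The lower counts were 5 and 4 without K562 replicate 2, 5 and 4 without K562+L replicate 3, and 5 for the cycle without K562+L replicate 1. The higher count of the cycle was 1 without K562 replicate 2 or any K562+L library and 6 with the offsets. Of 25 NRF2 genes, 6 were higher and 8 lower, but 2 or 3 were higher in each fit without K562 replicate 2 or 3 or any K562+L library, and 10 with the offsets. Besides SQSTM1 and SLC7A11, OSGIN1 was called higher by 1.54 and ABCC3 lower by 3.14.

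Of 13 genes of HLA class I and antigen presentation, 5 were lower (8 with the offsets) and 0 higher, and HLA-C, whose reads can be shared with its paralogs, was called lower by 1.81 on the log2 scale but did not pass without K562 replicate 2, K562+L replicate 2 or K562+L replicate 3. In the interferon list 3 of 21 were higher and 4 lower, with IFI16, a DNA sensor, called higher by 1.23. BST2, the tetherin gene, fell from 95.7, 129.6 and 138 CPM to 49.6, 49.5 and 43.4 CPM. IFITM1 was at 708, 865 and 991 CPM against 365, 343 and 309 CPM, and its homologues IFITM2 and IFITM3, looked up beside it, fell by 1.44 and 1.40. With the offsets BST2 was at -0.99, IFITM1 at -0.94 and IFITM3 at -0.97, none of them called. The IFITM genes are similar in sequence and are uncertain for that reason. Integrins gave 6 lower and 0 higher of 19, and collagens 3 higher and 3 lower (5 with the offsets) of 21. Of 102 ion channel genes, 12 were higher (11.8%, against 18.2% of all genes tested) and 17 lower (16.7% against 19%). Their lower count was 11 without K562 replicate 2. Of 218 solute carriers, 38 were higher (25 without K562+L replicate 1) and 44 lower (29 without K562 replicate 2). These were 17.4% and 20.2%, close to the shares over all genes. The shares called were 11.8% of ion channels and 9.17% of solute carriers, against 6.39%. SLC25A29, a mitochondrial carrier of basic amino acids, fell 3.71-fold and SLC25A1, the citrate carrier, by 1.08, or was at -0.77 with the offsets. MARCKS, a substrate of protein kinase C at the membrane, fell 3.68-fold and SNRPF, a core protein of the spliceosomal snRNPs, 3.08-fold. Zinc finger genes named ZNF gave 111 higher and 35 lower of 413, 26.9% and 8.47%, with ZNF268 and ZNF616 called higher by 1.53 and 1.34, and 135 and 57 with the offsets. Their higher count was 66 without K562+L replicate 1, 68 without K562 replicate 2 and 71 without K562+L replicate 3, and the lower count 19 without K562 replicate 2 and 18 without K562+L replicate 1. Of the other lists, tubulins (4 higher, or 7 without K562 replicate 3 and 9 with the offsets, and 3 lower of 17), proteasome (1 and 6 of 35), polyamine synthesis (1 and 3 of 11), the MYC network (4, or 2 without K562 replicate 2, and 4 of 15), actin cytoskeleton and adhesion (8 and 10 of 34), splicing factors (8 and 7 of 40) and chromatin genes (10 and 4 of 30) had members on both sides, and 0 of 3 metallothioneins passed. Proteasome genes lower were 3 without K562 replicate 2, K562+L replicate 1 or K562+L replicate 3 and 15 without K562 replicate 1, and 8 were higher with the offsets. Chromatin genes higher were 6 without K562 replicate 2, K562+L replicate 1 or K562+L replicate 3, and those lower 8 with the offsets. Splicing factors higher were 3 without K562 replicate 2 and 5 without K562+L replicate 1 or 2, and those lower 3, 2 and 4 without K562 replicate 2, K562+L replicate 1 and K562+L replicate 3.

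The called genes of highest expression were long transcripts on the higher side. PRKDC, the catalytic subunit of the DNA-dependent protein kinase, was at 1035, 719.5 and 532 CPM in K562 and at 1747, 1243 and 1912 CPM in K562+L (log2 fold change 1.10, SE 0.25, adjusted p = 0.011). Its transcript used for length has 13509 bases, and with the offsets its log2 fold change was 0.73. UBR4, MDN1 and TNPO1, at 1.04 each, were at 0.67, 0.61 and 0.66 with the offsets. RELN, the secreted reelin, was at 320.4, 245 and 194 CPM against 831, 638 and 938 CPM, with a log2 fold change of 1.66, or 1.33 with the offsets. In all 5 of these genes K562 replicate 1 was the highest K562 library and K562+L replicate 2 the lowest K562+L library.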

How the data were processed

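The authors deposited a table of whole-number counts per gene symbol and library, without normalization. The submitters' processing notes name FastQC, STAR, StringTie, DESeq2 and hg38, without versions or roles, and the counting rule and its strand are not given in the sources used here. Of 11816 counts from 1 to 25 in the 6 libraries, 66.4% lay on a multiple of 4 or just 1 higher, where 48% of the whole numbers in that range lie, so that 1 fragment may be worth about 4 counts. Libraries were grouped by their treatment label. In edgeR 4.0.16 (R 4.3.3), filterByExpr with a minimum count of 10 chose the genes, TMM scaled the libraries, and glmQLFit with glmQLFTest compared the groups over 6 libraries with no covariate. The standard error is the log2 fold change over the square root of F. DESeq2 1.42.0 and limma 3.58.1 served as alternatives. The labels do not say whether replicate numbers pair the samples, and the fit treated them as unpaired. Positions and transcript lengths came from GENCODE release 29 (GRCh38), in which 19287 symbols matched, and promoters from RefSeq (GRCh38.p14), with 10376 of the tested genes. Coordinates count from 1.

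Genes were named by a rule: the 10 called genes in each direction with the largest change among those of at least 5 CPM without overlap, up to 4 called members of a list in each direction (or 2 members where none was called), the genes of the blotted proteins and MKI67, the 5 called genes of highest CPM in each direction, and any member of the lists drawn in full. Exceptions are said in the text, and some genes that the rule names are not reported here, although list counts include them. The lists and members were chosen with earlier results of these data known. No list was tested. The fit was tested on simulated counts. Groups of 3 allow no test for outlying libraries.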

Additional observations from a re-analysis of the deposited data

How the results depend on the processing

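The 826 called genes became 931 with DESeq2, 903 with limma voom, 828 with RLE size factors, 849 with upper-quartile scaling, 820 without TMM, 816 without the filter, 761 and 763 with stricter filters, 774 with counts divided by 4 and 944 with all 12 libraries in 1 fit, and none that was called in both changed sign. A threshold of 1.5-fold inside the test gave 530 (176 higher), and an adjusted p under 0.01 gave 197 higher. With the replicate number as a block, 735 genes were called and the count at the adjusted p alone was 3126. Deviations from the group mean correlated with r of -0.03, 0.00 and -0.19 between same-numbered libraries, which does not settle whether they were paired. Leaving out 1 library gave 672 to 1085 called, 228 to 460 higher, 424 to 625 lower and 2871 to 5823 at the adjusted p alone. The length and GC offsets, chosen after seeing the data, gave 750, of which 613 were shared with the 826. No named gene that passed in the reported fit changed sign, and none passed with the opposite sign. Some that did not pass changed sign, such as IDI1 (log2 fold change -1.19 to 0.56) and BCL2 (-0.32 to 0.09). The depth limits little, but if a fragment is worth 4 counts, genes under 1 CPM rest on few fragments.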
